A study of Mus musculus with 9 samples.

Results

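Mouse salivary secretion comes from 3 pairs of major glands, and 10 secretory genes were followed in RNA from submandibular glands (SMGs). They are grouped here as parotid or sublingual genes, a grouping that was not tested. The 6 parotid genes were *Bpifa2*, *Amy1*, *Cst10*, *Chia1*, *Smr3a* and *Dnase1*, and the 4 sublingual genes were *Dcpp1*, *Dcpp2*, *Dcpp3* and *Muc19*. They are 10 of the 48709 genes counted. They were selected on measured values, namely their uneven levels across these same libraries, so their levels and the difference between genotypes are given as a description. Counts of members past a threshold in the fits across all genes are printed beside the share of all genes, and nothing is read from them. Of the 10, 9 were found by gene name in the normalized table. *Muc19* (ENSMUSG00000044021) has no name there and was found by its Ensembl identifier.

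The libraries came from 9 adult male mice on a C57BL/6 background, 1 library per mouse, 4 wild type (WT) and 5 double knockout (DKO). The WT mice were littermates. The DKO mice lack *Hs3st3a1*, through a frameshifting deletion made in exon 1 with a zinc finger nuclease, and *Hs3st3b1*, through a targeted allele that carries a LacZ cassette. Both genes encode 3-O-sulfotransferases of heparan sulfate, and the deletions are constitutive, so no cell type is spared. Exact ages and the founder of each mouse are not given in the sources used here.

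The labels were checked first. *Hs3st3a1* had 7, 3, 14 and 9 counts in WT 1 to WT 4 and 0 counts in each of the 5 DKO libraries. *Hs3st3b1* was at 2.99 to 5.37 CPM (read counts relative to library size, scaled by the authors' TMM factors) in WT and 0.505 to 1.85 CPM in DKO. Total counts ran from 20653492 to 37870519 in WT and from 17053747 to 34683690 in DKO, so that 1 read was worth 0.0222 to 0.0722 CPM. The 10 SMG acinar markers, of which 9 had a row, summed to 241411 to 651360 CPM over the 9 libraries. Whether this sum tells SMG alone from SMG mixed with another salivary gland was not tested. In that acinar sum DKO 1 lay within the range of the other 8 libraries, at 400280 CPM. So did its 8 granular duct markers, at 35477 CPM against 17472 to 101967 CPM. By genotype, the acinar sum ran from 241411 to 351876 CPM in WT and from 370048 to 651360 CPM in DKO. The granular duct sum ran from 49628 to 101967 CPM in WT and from 17472 to 41083 CPM in DKO. The part of these marker differences in the genotype description of *Bpifa2* and *Amy1* was not tested.

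As background, the parotid is a serous gland whose acini secrete digestive and defence proteins, and the sublingual gland is mainly mucous, with gel-forming mucin from mucous cells and smaller proteins from the serous demilunes that cap them. The adult SMG is seromucous, and in male mice it also holds large granular ducts. The SMG and the sublingual gland share a capsule in the mouse and the parotid lies beside them. In bulk RNA, fewer cells of a type and less RNA per cell cannot be told apart.

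The parotid genes were abundant in 1 library, DKO 1. Together the 6 genes took 306353 counts there, 0.883% of the library (95% Wilson interval 0.880 to 0.886%), against 727 to 2615 counts in the other 8, or 0.00314 to 0.00913%. Intervals cover counting error only. Summed levels were 8948 CPM in DKO 1, 27.7 to 57.9 CPM in WT and 68.2 to 99.95 CPM in DKO 2 to DKO 5. All 6 parotid genes had their highest level in DKO 1, and *Dcpp1* did as well. The other 3 sublingual genes had their highest level in DKO 4.

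**Figure D1:**
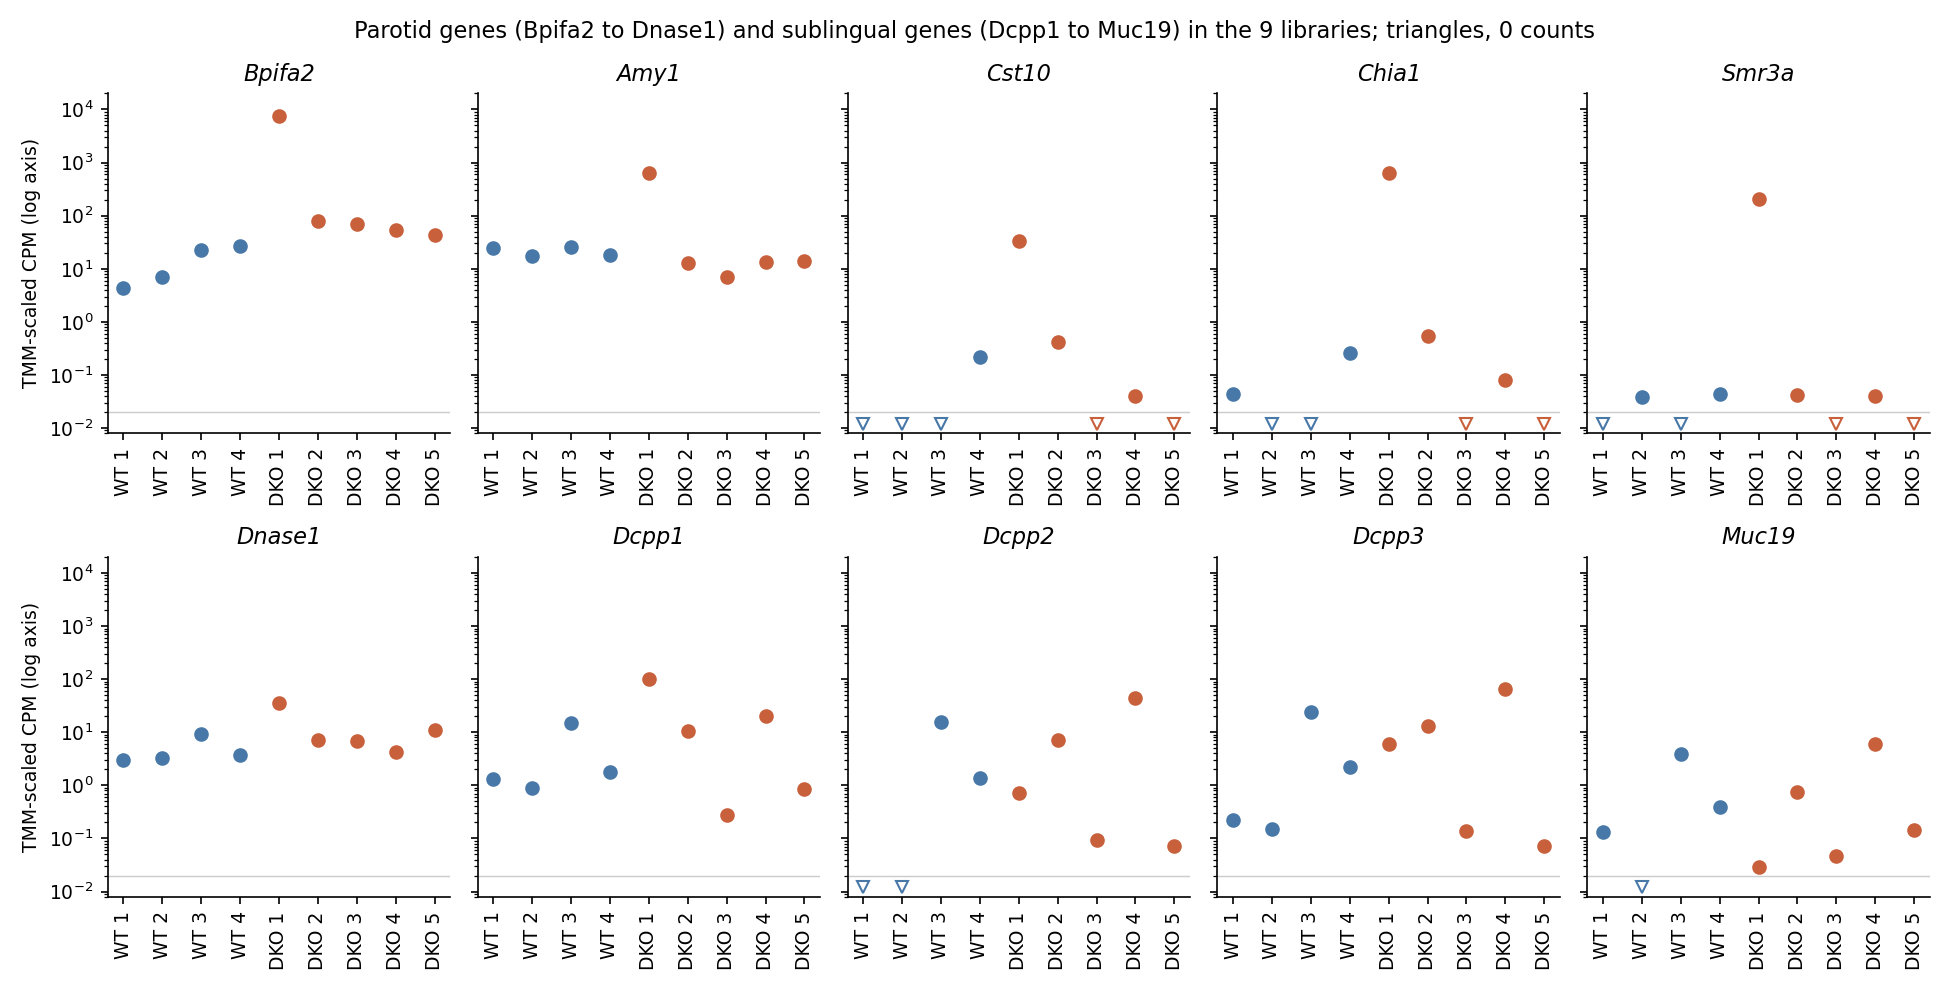
TMM-scaled CPM (log axis) of each of the 10 genes in the 4 WT (blue) and 5 DKO (orange) libraries, with open triangles, drawn below the grey line, for libraries at 0 counts. The 6 parotid genes peak in DKO 1, where *Bpifa2* reaches 7408 CPM, whereas *Dcpp2*, *Dcpp3* and *Muc19* peak in DKO 4 and are next highest in WT 3.

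*Bpifa2* encodes parotid secretory protein, a BPI-fold protein of saliva. In GRCm38 (GENCODE M21) it lies on chromosome 2 from 154008265 to 154016079, on the forward strand. Its level was 4.42, 7.09, 23.0 and 26.5 CPM in WT 1 to WT 4. It was 7408, 79.0, 68.4, 53.7 and 43.1 CPM in DKO 1 to DKO 5. The 5 DKO libraries all lay above the 4 WT libraries, and DKO 1 was 93.8 times the next highest, DKO 2. With 253648 counts *Bpifa2* was the 13th most abundant gene in DKO 1, and in the other libraries it ranked between 972 and 8143.

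*Amy1*, the salivary amylase that digests starch, lies on chromosome 3 (113555710 to 113606699, reverse strand). It was at 25.0, 17.3, 25.5 and 18.4 CPM in WT 1 to WT 4 and at 636, 12.9, 7.12, 13.4 and 14.1 CPM in DKO 1 to DKO 5. DKO 1 was thus 24.9 times the highest of the others, WT 3. The 4 other DKO libraries all lay below the 4 WT libraries. *Amy1* shares 1128 of its 3446 exon bases, on the same strand, with *Rnpc3*, a spliceosome component, which had 93 to 457 counts per library. *Rnpc3* itself was at 10.1 to 10.8 CPM in WT, 9.26 CPM in DKO 1 and 6.71 to 10.03 CPM in DKO 2 to DKO 5, so it too was lower in DKO than in WT without overlap. Its part in the *Amy1* difference was not tested. How the counting treated shared exons is not given in the sources used here, so the base level of *Amy1* is uncertain.

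*Chia1*, *Cst10* and *Smr3a* were close to absent outside DKO 1. *Chia1* encodes acidic mammalian chitinase, which digests chitin, and lies on chromosome 3 from 106113229 to 106132120. It had 1, 0, 0 and 6 counts in WT 1 to WT 4 and 21374, 13, 0, 2 and 0 counts in DKO 1 to DKO 5. *Cst10*, a member of the cystatin family of cysteine protease inhibitors, lies on chromosome 2 from 149405057 to 149410293. Its counts from WT 1 to WT 4 were 0, 0, 0 and 5, and from DKO 1 to DKO 5 they were 1139, 10, 0, 1 and 0. *Smr3a*, a small secreted proline-rich protein of the androgen-regulated salivary family, lies on chromosome 5 from 88002549 to 88008534. WT 1 to WT 4 gave 0, 1, 0 and 1 counts and DKO 1 to DKO 5 gave 7191, 1, 0, 1 and 0. Above the limit of 3 counts that separates detection from 0, *Chia1* and *Cst10* were detected in the same 3 libraries, DKO 1, DKO 2 and WT 4, and *Smr3a* in DKO 1 alone.

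In DKO 1 these genes reached 624 CPM (*Chia1*), 210.0 CPM (*Smr3a*) and 33.3 CPM (*Cst10*). The *Chia1* level was 1169.9 times and the *Cst10* level 81.0 times that of DKO 2, the next highest library for both. For *Smr3a* no other library passed 3 counts, and DKO 1 was at least 969.7-fold higher than that floor in the shallowest library, 0.217 CPM. Counts of 0 to 3 cannot be told from 0 at this depth and do not show that a gene is silent.

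*Dnase1*, a secreted endonuclease that degrades DNA, was the parotid gene with the smallest spread. It lies on chromosome 16 from 4036942 to 4040024. Its level was 3.04, 3.31, 9.37 and 3.78 CPM in WT 1 to WT 4 and 36.2, 7.10, 6.71, 4.19 and 11.0 CPM in DKO 1 to DKO 5. DKO 1 was 3.30 times the next highest library, DKO 5, and the other 4 DKO libraries overlapped WT. *Dnase1* shares 504 of its 3083 exon bases with the antisense gene *Gm15879* (at most 23 counts). It shares 54 with *Trap1*, which had up to 3499 counts over its whole length. In these unstranded libraries only reads within the shared bases cannot be told apart from *Dnase1* reads.

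Per kilobase of exon, the level in DKO 1 was highest for *Bpifa2*, at 3688 CPM per kb. *Smr3a* and *Chia1* followed at 329 and 328 CPM per kb, then *Amy1* at 184, *Dcpp1* at 159.8, *Cst10* at 39.8 and *Dnase1* at 11.8 CPM per kb. The remaining genes, *Dcpp3*, *Dcpp2* and *Muc19*, were at 8.61, 0.998 and 0.00321 CPM per kb in that library.

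The parotid genes did not keep the proportions of DKO 1 elsewhere. *Bpifa2* had 11.9 counts for each *Chia1* count in DKO 1, but 148 in DKO 2 and 103 in WT 4. At the ratio of DKO 1, the 13 *Chia1* counts of DKO 2 would go with 154 *Bpifa2* counts, and 1924 were measured. In DKO 3, DKO 5, WT 3 and WT 2 *Chia1* was at 0 counts beside 1489, 597, 1040 and 186 counts of *Bpifa2*. *Bpifa2* had 11.7 counts per *Amy1* count in DKO 1, 3.06 to 9.61 in DKO 2 to DKO 5 and 0.177 to 1.44 in WT.

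The 100 bases in front of the RefSeq start of *Bpifa2* (chr2:154008176-154008275) and *Smr3a* (chr5:88002425-88002524), both on the forward strand of GRCm38, are shown because these genes mark, respectively, the most abundant and the most library-restricted of the parotid set. Capitals mark TATAA, the core of a TATA box.
Bpifa2: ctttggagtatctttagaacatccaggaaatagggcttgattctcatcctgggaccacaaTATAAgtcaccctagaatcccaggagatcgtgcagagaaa
Smr3a: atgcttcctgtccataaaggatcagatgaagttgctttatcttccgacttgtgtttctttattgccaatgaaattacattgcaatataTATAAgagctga
The 5 letters TATAA, searched on both strands in the 50 bases before the start, were found in 6 of the 11 RefSeq promoters of the 9 members that have one, namely *Bpifa2*, *Chia1*, *Smr3a*, *Dcpp1*, *Dcpp2* and *Dcpp3*. Of all 32851 promoters in the same table, 6.36% hold it. The *Dcpp* promoters are near copies of one another, so these matches are not separate cases, and a match of 5 letters is no evidence of a working element. No RefSeq promoter was available for *Muc19*.

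Between genotypes, the description of *Bpifa2* and *Amy1* turns on DKO 1. Over 9 libraries *Bpifa2* averaged 15.3 ± 11.1 CPM in WT (SD, n = 4), and the DKO mean was 1531 ± 3286 CPM (SD, n = 5). The edgeR fit put the log2 fold change at 6.65 (SE 1.89). Without DKO 1 the DKO mean was 61.0 ± 15.8 CPM (SD, n = 4) and the log2 fold change 2.0 (SE 0.48). WT libraries then spanned 4.42 to 26.5 CPM and DKO libraries 43.1 to 79.0 CPM, with no overlap. For *Amy1* the WT mean was 21.5 ± 4.33 CPM (SD, n = 4) and the DKO mean 137 ± 279 CPM (SD, n = 5), and the fit gave a log2 fold change of 2.67 (SE 1.27). Without DKO 1 the DKO mean was 11.9 ± 3.20 CPM (SD, n = 4), and the log2 fold change turned to -0.86 (SE 0.22). The ranges of 17.3 to 25.5 CPM in WT and 7.12 to 14.1 CPM in DKO 2 to DKO 5 did not overlap. In CPM without TMM factors the groups without DKO 1 were still apart, at 4.79 to 28.8 against 35.0 to 72.1 for *Bpifa2* and 19.6 to 30.4 against 5.49 to 14.8 for *Amy1*.

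**Figure D2:**
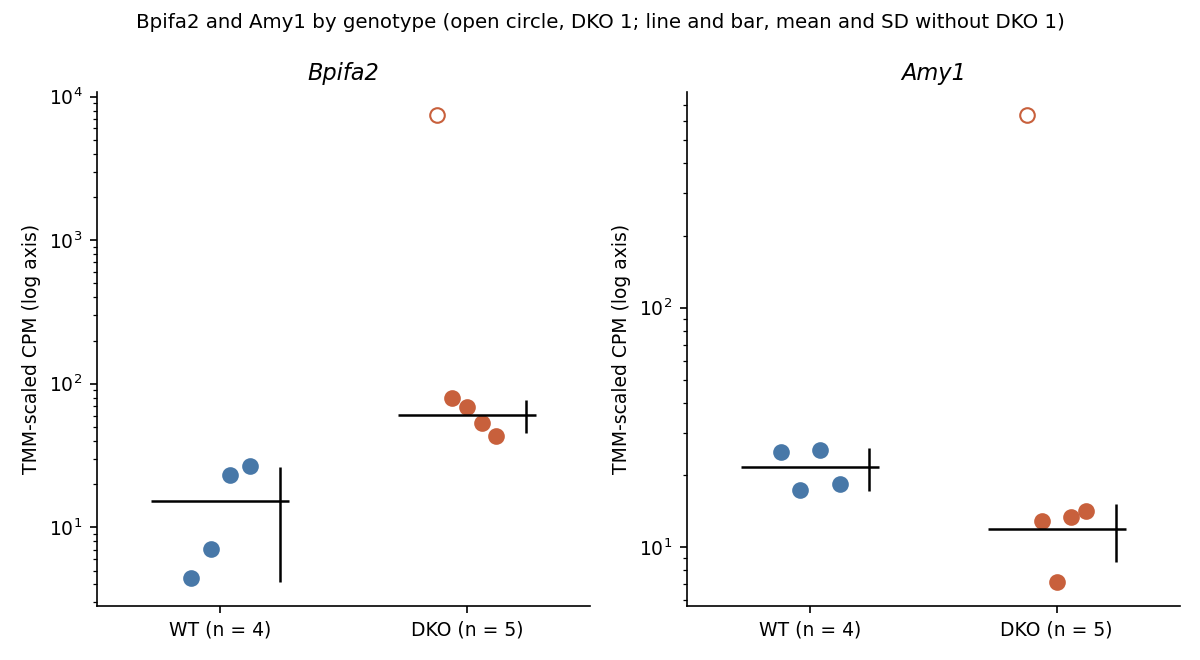
TMM-scaled CPM (log axes) of *Bpifa2* and *Amy1* in each WT and DKO library, with DKO 1 as an open circle and lines and bars for the mean and SD of each group without DKO 1. *Bpifa2* lies higher in all 5 DKO libraries than in WT, whereas *Amy1* is lower than WT in 4 DKO libraries and at 636 CPM in DKO 1.

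The fits across all genes give the background for these values. Of the 10 members, 6 passed the filter on low counts. *Cst10*, *Chia1*, *Smr3a* and *Muc19* did not, because too few libraries reached the minimum, and have no fitted value. With all 9 libraries, 0 of the 6 had a Benjamini-Hochberg adjusted p under 0.05 in edgeR's quasi-likelihood fit, beside 0.629% of 13842 genes. At an unadjusted p under 0.05 it counted 2 of the 6 (*Bpifa2* and *Dnase1*), beside 14.5% of genes. DESeq2, which gave no adjusted p for *Bpifa2* and *Amy1*, called 0 of the other 4, beside 4.45% of genes. The fitted log2 fold changes of *Dnase1*, *Dcpp1*, *Dcpp2* and *Dcpp3* were 1.41 (SE 0.60), 2.43 (SE 1.29), 1.25 (SE 1.51) and 1.3 (SE 1.42).

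The groups of *Bpifa2* did not overlap over 9 libraries, as in 5.95% of genes tested, and no other tested member was apart. Without DKO 1, edgeR called 0 of 6 members (0.00731% of 13676 genes) and counted 2 at an unadjusted p under 0.05 (14.3% of genes), *Bpifa2* and *Amy1*. DESeq2 without DKO 1, a fit added after seeing the data, called both, beside 4.29% of genes. Non-overlap without DKO 1, found in 8.2% of genes, held for 2 of the 6 members, *Bpifa2*, higher in DKO as in 3.48% of genes, and *Amy1*, lower in DKO as in 4.72%.

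The sublingual genes followed other libraries. *Dcpp1*, *Dcpp2* and *Dcpp3* encode demilune cell and parotid proteins, small secreted proteins named after the serous demilunes of the sublingual gland and after the parotid. They sit within 38.6 kb on chromosome 17, at 23880876 to 23882853, 23880880 to 23900788 and 23917458 to 23919441, all on the forward strand. The coding sequences were 93.8% identical between *Dcpp1* and *Dcpp2*, 93.2% between *Dcpp1* and *Dcpp3* and 95.3% between *Dcpp2* and *Dcpp3*. The RefSeq promoters before the start were 93.3%, 94.9% and 96.4% identical in the same order. The 100 bases before each start, at chr17:23880776-23880875, chr17:23898622-23898721 and chr17:23917358-23917457 (GRCm38, forward strand), are shown because genes with such similar starts differed between libraries. Capitals mark TATAA.
Dcpp1: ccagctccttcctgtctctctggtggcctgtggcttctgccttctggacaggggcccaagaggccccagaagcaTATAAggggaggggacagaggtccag
Dcpp2: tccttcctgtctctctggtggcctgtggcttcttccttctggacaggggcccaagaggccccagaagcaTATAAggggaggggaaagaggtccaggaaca
Dcpp3: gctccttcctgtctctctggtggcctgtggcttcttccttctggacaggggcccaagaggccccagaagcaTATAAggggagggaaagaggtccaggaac

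How far reads can tell the 3 genes apart depends on where they fall. In the stretch with most differences, coding bases 274 to 333 of *Dcpp1*, 15 of 60 positions differ in at least 1 gene (capitals), of 46 in the 513 coding bases.
Dcpp1 coding: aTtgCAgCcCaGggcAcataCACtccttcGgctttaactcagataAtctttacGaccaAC
Dcpp2 coding: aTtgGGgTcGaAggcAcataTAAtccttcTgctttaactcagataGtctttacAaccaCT
Dcpp3 coding: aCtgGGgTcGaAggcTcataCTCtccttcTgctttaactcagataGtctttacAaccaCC
Of all 50-base windows in the coding sequence, 35.3% of those in *Dcpp1*, 22.8% in *Dcpp2* and 26.5% in *Dcpp3* also occur, letter for letter, in one of the other 2 genes. *Dcpp1* and *Dcpp2* also share 30 annotated exon bases. How such reads were assigned is not given in the sources used here, so the split between the genes is uncertain.

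*Dcpp1* was at 1.295, 0.876, 14.8 and 1.76 CPM in WT 1 to WT 4 and at 98.6, 10.6, 0.276, 20.2 and 0.866 CPM in DKO 1 to DKO 5. *Dcpp2* was at 0, 0, 15.6 and 1.37 CPM in WT and at 0.730, 7.06, 0.0919, 44.8 and 0.0722 CPM in DKO. *Dcpp3* was at 0.223, 0.152, 23.9 and 2.19 CPM in WT and at 6.02, 13.4, 0.138, 64.2 and 0.0722 CPM in DKO. For *Dcpp2* and *Dcpp3* the order was thus DKO 4, WT 3, DKO 2 and then lower values, and both genotypes held high and low libraries.

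*Muc19*, the gel-forming mucin of sublingual mucous cells, lies on chromosome 15 from 91838326 to 91934555, where GENCODE M21 annotates it as a processed transcript. It had 3, 0, 172 and 9 counts in WT 1 to WT 4 and 1, 18, 1, 155 and 2 counts in DKO 1 to DKO 5. Scaled, the highest libraries were DKO 4 at 6.12 CPM, WT 3 at 3.81 CPM and DKO 2 at 0.739 CPM, the same 3 libraries in the same order as for *Dcpp2* and *Dcpp3*. DKO 1, with 1 count, was under the limit of 3 counts.

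*Smgc*, a secreted salivary protein gene that starts at 91838265, just before *Muc19*, and shares 95 exon bases with it, had a different order. It was highest in DKO 2 (39.2 CPM), DKO 4 (26.4 CPM) and WT 2 (7.85 CPM), and at 3.70 CPM in WT 3. In WT 2 it had 206 counts beside 0 counts of *Muc19*.

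The make-up of the *Dcpp* counts differed between libraries. *Dcpp1* took 93.6% of the 3606 *Dcpp* counts in DKO 1 (95% Wilson interval 92.7 to 94.3%). In the libraries where *Dcpp2* and *Dcpp3* were high its share was 27.3% of 2453 counts in WT 3 (25.6 to 29.1%), 34.2% of 757 in DKO 2 (30.9 to 37.7%) and 15.6% of 3273 in DKO 4 (14.4 to 16.9%). WT 4, with 124 counts, was at 33.1% (25.4 to 41.7%). The interval of DKO 1 lay apart from all 4. The share was also high in WT 1 (85.3% of 34 counts), WT 2 (85.2% of 27) and DKO 5 (85.7% of 14), where few counts leave wide intervals, down to 60.1% in DKO 5. DKO 3 lay between, at 54.5% of 11 counts (28.01 to 78.73%). *Dcpp3* had 1.43 to 1.90 counts per *Dcpp2* count in WT 3, WT 4, DKO 2 and DKO 4, and 8.24 in DKO 1.

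**Figure D3:**
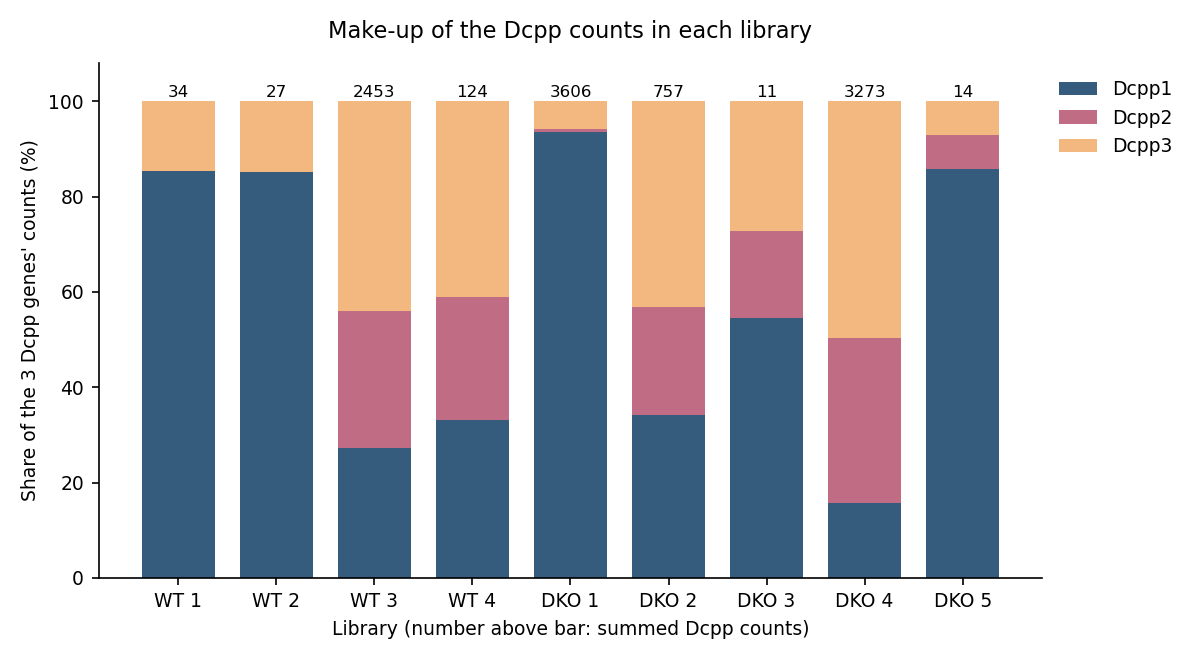
Share of the summed counts of the 3 *Dcpp* genes (%) taken by each gene in each library, with the summed counts above the bars. *Dcpp1* takes 93.6% in DKO 1, whereas *Dcpp2* and *Dcpp3* take most counts in WT 3, WT 4, DKO 2 and DKO 4.

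Whether the parotid and sublingual genes go together was read from 2 scores, each the mean over its genes of log2(CPM + 0.5) centred over the 9 libraries. The parotid score was 6.01 in DKO 1 and between -1.24 and -0.23 in the other 8 libraries. The sublingual score was highest in DKO 4 (3.32), WT 3 (2.33) and DKO 2 (1.29), and DKO 1 came next at 0.85, carried by *Dcpp1*. WT 4 was at -0.50 and WT 1, WT 2, DKO 3 and DKO 5 lay between -1.99 and -1.65. The library with the highest parotid score was thus not one of the 3 with the highest sublingual score, and DKO 4 and WT 3 had parotid scores of -0.69 and -0.63, inside the range of the rest.

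DKO 1 stands in a cluster of its own, so no pooled correlation is given. Over the other 8 libraries (17053747 to 37870519 counts, scaled alike), the scores had a Pearson r of 0.50 and a Spearman rho of 0.405. Without WT 1 and WT 2, the 2 libraries farthest from the median parotid score, r was 0.188 over 6 libraries, so the 0.50 leaned on them. Leaving out the extremes also narrows the range, and no relation is claimed. Leaving out WT 1 or WT 2 alone gave 0.423 and 0.400, and no other pair was left out.

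**Figure D4:**
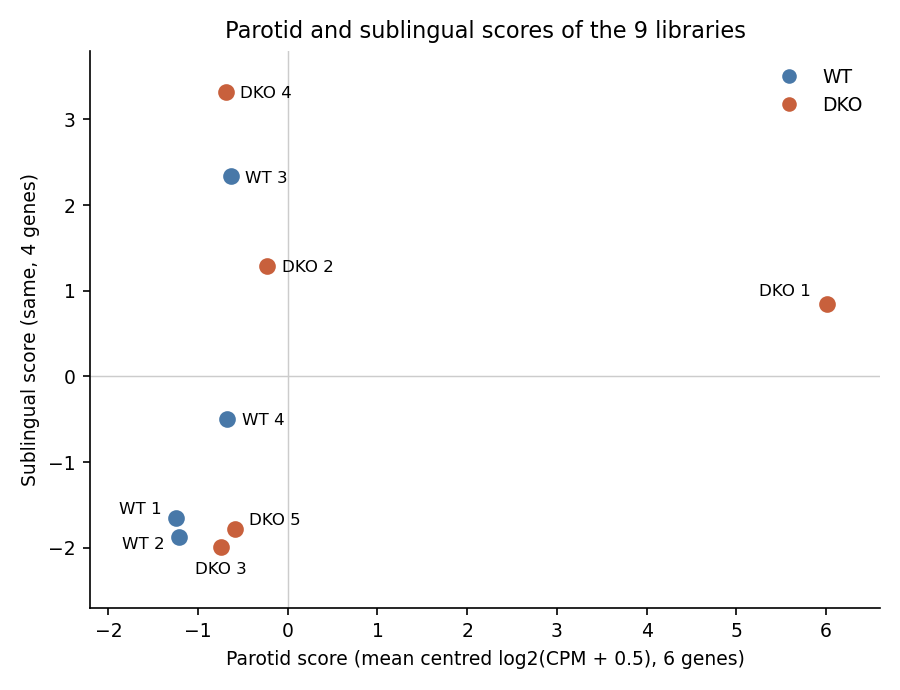
Sublingual score against parotid score (both in log2 units) for the 4 WT (blue) and 5 DKO (orange) libraries. DKO 1 stands alone at a parotid score of 6.01, whereas the sublingual score separates DKO 4, WT 3 and DKO 2 from the rest at similar parotid scores.

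A gene was called high in a library where it had over 3 counts and at least 4 times its median over the 9 libraries. This held for 23 of the 90 pairs of a member and a library. The share over all genes at this rule was not computed, and the members were selected for uneven levels. Nothing is therefore read from the count. DKO 1 held all 6 parotid genes and *Dcpp1*. DKO 2 held *Cst10*, *Chia1* and all 4 sublingual genes, DKO 4 and WT 3 held the 4 sublingual genes and no parotid gene, and WT 4 held *Cst10* and *Chia1* alone. WT 1, WT 2, DKO 3 and DKO 5 held none. For *Cst10* and *Chia1* the median is at or near 0, so 5 and 6 counts sufficed in WT 4. A different rule was used across the genome, on the 11963 genes with at least 50 counts in some library. Of these, 95 (0.794%) had a highest library at least 16 times the median of the other 8. The members took 6 of the 23 such genes in DKO 1 (the parotid genes except *Dnase1*, and *Dcpp1*) and 3 of the 23 in DKO 4 (*Dcpp2*, *Dcpp3* and *Muc19*).

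Markers of other cell types were read in the same libraries. The 12 lymph node markers, 11 of them detected and none at 0 in all libraries, summed to 4.56 CPM in DKO 1 against 1.41 to 3.00 CPM in the other 8, and their part in the parotid values was not tested. The 10 adipocyte markers, 8 detected and *Ucp1* at 0, summed to 6.40 CPM in DKO 1 and 2.82 to 8.69 CPM elsewhere. The 12 skeletal muscle markers, 7 detected and *Myh1*, *Myh4*, *Tnnc2* and *Pvalb* at 0, summed to 3.48 CPM in DKO 1 and 3.83 to 8.40 CPM elsewhere. The sum of the 12 mucous cell markers did not follow the sublingual genes. It was 32.0 CPM in DKO 4 and 23.6 CPM in WT 3, within a range of 19.3 to 42.3 CPM. Most of that sum came from *Spdef* (mean 9.64 CPM in WT and 19.0 in DKO) and *Agr2* (13.5 and 14.9 CPM). *Tff1*, *Tff2*, *Tff3* and *Ern2* were at 0 in all libraries. The 10 serous exocrine genes, among them granule and vesicle proteins, summed to 955 CPM in DKO 1 within 786 to 982 CPM.

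The relatives of the members were counted in the same libraries. Of the 6 other amylase genes, the pancreatic *Amy2a1* to *Amy2a5* were at 0 counts and *Amy2b* at no more than 1. *Amy1* coding sequence is 89.4% identical to *Amy2a5*, and 2.29% of its 50-base windows are shared. Of 14 other BPI-fold genes 8 were at 0 in all libraries, and *Lbp*, which carries lipopolysaccharide, was at 1.85 CPM in WT and 1.80 CPM in DKO on average. *Chil1* and *Chil6*, the 2 chitinase relatives detected, had 64 and 24 counts at most. The 5 other deoxyribonuclease genes, *Dnase1l1*, *Dnase1l2*, *Dnase1l3*, *Dnase2a* and *Dnase2b*, summed to 48.0 CPM in DKO 1 and 36.4 to 49.5 CPM elsewhere. Of 10 other cystatin genes 4 were detected and 5 were at 0, and *Cst6* was lower in DKO, as given with the fits of related genes. *Mucl1*, listed with the relatives of *Smr3a*, was uneven, from 0.987 CPM in WT 4 to 99626 CPM in DKO 1. Among the gel-forming mucins and *Smgc*, whose uneven levels are given above, *Muc5ac* was at 0, *Muc2* at no more than 1, *Muc5b* at no more than 4 and *Muc6* at no more than 12 counts.

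The proline-rich salivary genes *Prb1* and *Prpmp5*, outside the set, were highest in DKO 1, with 22 and 21 counts. *Prb1* had 6 counts in DKO 2 and 0 or 1 in the other 7 libraries, and *Prpmp5* had 0 to 2 counts in the other 8. *Prh1*, another gene of that list, had its highest level outside DKO 1, at 0.460 CPM against 0.234 CPM. *Prr27* and *Prr9* were at 0.

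Over all lists of related genes and of other cell types, 125 of 129 genes had a row, 53 were tested with edgeR over 9 libraries, and 3 were called, all lower in DKO, beside 0.629% of all genes. They were *Cst6*, a cystatin (12.3 CPM in WT and 3.43 in DKO, log2 fold change -1.83, adjusted p = 0.0478), *Cpe*, a carboxypeptidase of secretory granules (33.1 and 16.4 CPM, log2 fold change -1.01, adjusted p = 0.0478), and *Acta1*, skeletal muscle actin (3.48 and 0.286 CPM, log2 fold change -3.65, adjusted p = 0.0385). These calls are lost in several of the alternatives, including the fit without DKO 1. The median log2 fold change of the 53 genes was -0.01, beside 0.01 for all genes tested. It pools lists of opposite direction, with a median of -1.84 for the 8 granular duct markers and 0.64 for the 9 acinar markers tested.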

How the data were processed

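RNA from the SMGs of 4 WT and 5 DKO adult male mice was sequenced on a HiSeq2500 after Nextera XT preparation, which keeps no strand, with 1 library from each mouse. The submitters' processing notes name STAR 2.5.2a, DESeq2, edgeR and limma; the counting tool and annotation are not given in the sources used here. The raw read counts deposited hold 48709 genes, and the filtered counts 17562 rows. The deposited signal values are those counts divided by 1 factor per library (TMM-scaled CPM): all 158058 values gave whole counts to within 1e-06. Total counts (20653492 to 37870519 in WT, 17053747 to 34683690 in DKO) set the precision, and 3 counts were taken as the floor of detection.

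Raw counts were fitted across all genes in R 4.3.3 with edgeR 4.0.16 (TMM, filterByExpr with minimum count 10 and minimum total 15, legacy quasi-likelihood test, genotype as the single term, Benjamini-Hochberg adjustment, threshold 0.05). DESeq2 1.42.0, other scaling, no filter, a replicate block and leaving out each library were alternatives. Both tests were tried on simulated data. A paired fit is not the main one, since no pairing is stated. Deviations of same-numbered libraries correlated at 0.150, 0.298, 0.0739 and 0.0136 for replicates 1 to 4. Unlike-numbered pairs of a WT and a DKO library ran from -0.222 to 0.0968, so replicates 1 and 2 lay above them all. The source of this likeness was not tested. Levels are the deposited CPM, with the same scaling applied to rows outside the filtered table. Intervals are 95% Wilson intervals. Gene models are from GENCODE M21 and promoters from RefSeq (GRCm38.p6). The sample titles give each library a number, and some of these numbers lie close together across genotypes. What the numbers stand for is not stated, and no litter or batch entered the main fit. With 1 library per mouse, p-values are taken to measure the spread between mice.

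The members and the gene lists were chosen with earlier results of these data known. Genes named are the members, genes of the lists, the 5 genes outside the members that correlate best with each score, and the deleted genes. The genes whose exons overlap a member (*Rnpc3*, *Gm15879*, *Trap1*) were named after their values were seen. No column of per-sample values was left out (0 columns). No p is given for the scores, since DKO 1 stands in a cluster of its own and the members were selected on these values. The female libraries were not analysed here.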

Additional observations from a re-analysis of the deposited data

Results flagged for a closer look

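Each member and *Smgc* was checked for a library whose gap to the nearest other library of its genotype exceeded Dixon's 95% value, 22 groups in all. Chance flags about 1 group in 20 where genes are not picked for their values. The members were selected for uneven levels in these same libraries, so the 16 flags restate that choice and are a description. They also share libraries and are not separate cases.

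In DKO 1 the highest of 5 DKO values stood apart for *Bpifa2* (7408 CPM), *Amy1* (636 CPM), *Cst10* (33.3 CPM), *Chia1* (624 CPM), *Smr3a* (210.0 CPM), *Dnase1* (36.2 CPM) and *Dcpp1* (98.6 CPM), that is 7 of the flags. In DKO 4 it did for *Dcpp2* (44.8 CPM), *Dcpp3* (64.2 CPM) and *Muc19* (6.12 CPM). In WT 3 the highest of 4 WT values stood apart for *Dnase1* (9.37 CPM), *Dcpp1* (14.8 CPM), *Dcpp2* (15.6 CPM), *Dcpp3* (23.9 CPM) and *Muc19* (3.81 CPM). *Cst10* in WT 4 (0.215 CPM, 5 counts) was flagged because the other 3 WT libraries were at 0. *Smgc* was not flagged in either genotype.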

How the results depend on the processing

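Against 87 genes called over 9 libraries by edgeR, 87 were called with RLE scaling, 616 by the DESeq2 Wald test, 347 with no filter on low counts and 586 by DESeq2 without DKO 1 (added after seeing the data). With the replicate block 0 were called, and no pairing of same-numbered libraries is stated in the sources used here. DKO 5 has no WT library of its number, so it adds nothing to the genotype term in that fit. In the sample titles, the numbers of WT 3 and DKO 4, and of WT 4 and DKO 3, lie closer than those of the same-numbered libraries. The block is therefore no check of a pairing. Replicates 1 and 2 correlated more across genotypes than any unlike-numbered pair (0.0968 at most), and replicates 3 and 4 did not. Leaving out 1 library gave 0 to 441 calls: 0 without WT 1, WT 3, WT 4, DKO 2 or DKO 5, 1 without DKO 1, 2 without DKO 3, 306 without WT 2 and 441 without DKO 4. Of the related genes 3 were called, against 17 by DESeq2, 10 with no filter, 0 with the block, 17 by DESeq2 without DKO 1, and 0 to 10 with 1 library left out (0 without DKO 1, 8 without WT 2, 10 without DKO 4).

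Of 84 alternative fold changes of tested members, 80 kept their direction. *Bpifa2* had an adjusted p of 0.0333 in edgeR with no filter on low counts, a setting that called 347 genes. Its adjusted p in DESeq2 without DKO 1 was 0.0275. Nothing is read from these values, since the members were selected on these libraries. *Amy1* turned from 2.67 to -0.86 without DKO 1 in edgeR and in DESeq2. Without DKO 4 *Dcpp2* turned from 1.25 to -1.10 and *Dcpp3* from 1.3 to -0.43. *Bpifa2* ranged from 2.0 to 7.04 with 1 library left out, *Amy1* from -0.86 to 2.98, *Dcpp2* from -1.10 to 4.55, *Dcpp3* from -0.43 to 4.32, *Dcpp1* from 0.75 to 4.34 and *Dnase1* from 0.54 to 1.96. With the replicate block, to whose genotype term DKO 5 adds nothing, *Bpifa2* was at 3.13 and *Amy1* at 0.14.

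The 23 high pairs were 25 at 2 times the median, 16 at 10 times and 23 in CPM without TMM factors. The r of 0.50 between the scores was 0.188 without WT 1 and WT 2, 0.436 with a pseudocount of 5, 0.696 in CPM without TMM factors and 0.400 to 0.605 with 1 more library left out. The cause of these changes was not tested.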

Other observations

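Outside the members, 2 genes that are not immunoglobulin segments stood high in DKO 1. *Mucl1*, a mucin-like gene, was at 99626 CPM there (3410981 counts). It was also at 37205 CPM in WT 1 (832879 counts) and at 0.987 to 4.87 CPM in the other 7 libraries, so it was high in a library whose parotid genes were low. *BC037156* had 238 counts in DKO 1, 8 in DKO 2, 4 in WT 4 and 0 to 2 in the other 6. DKO 2 and WT 4 are the libraries in which *Chia1* and *Cst10* were also detected.

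By Pearson r over the 9 libraries, *BC037156* (0.989) and 4 immunoglobulin variable segments, *Igkv4-58* (0.991), *Ighv1-2* (0.991), *Igkv4-63* (0.991) and *Ighv1-5* (0.969), were the 5 genes of 11953 most like the parotid score. These values rest on DKO 1. Immunoglobulin variable segments made up 15 of the 23 genes whose highest library was DKO 1 at 16 times or more the median of the other 8, and 18 of the 23 with DKO 4 as that library. Some of the other genes counted there were high in a further library too, *Mucl1* among them. Most like the sublingual score were *Erap1* (0.902), *Man2a1* (0.893), *Zbtb24* (0.892), *Smpd2* (0.886) and *Lats2* (0.869), whose levels varied less than those of the members, *Man2a1* from 1.37 CPM in WT 2 to 2.49 CPM in DKO 4, *Erap1* from 10.4 CPM in DKO 3 to 14.9 CPM in WT 3 and *Smpd2* from 26.7 CPM in WT 1 to 32.2 CPM in DKO 4. None of these correlations carries a test.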
